A study of Mus musculus with 2 samples.

Results

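The genes described are 6 members of the Notch pathway, *Dtx1*, *Pofut1*, *Notch1*, *Notch2*, *Rbpj* and *Hes1*, among the 19960 genes listed for mouse omental cells. The omentum is an adipose tissue of the peritoneal cavity, and its lymphoid aggregates are the milky spots. They were found by symbol. *Dtx1* and *Pofut1* were chosen by their lower level in CD4 T cells of *Postn*-DTR mice, so that difference is given as a description of the data that picked them and supports nothing. The other 4 genes were added as the receptors, the DNA-binding factor and a target of the same pathway.

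Notch receptors sit in the cell membrane and are activated by ligands of the Delta-like and Jagged families on a neighbouring cell. Inside the secretory pathway the receptor is modified by sugar transfer, for which POFUT1 (protein O-fucosyltransferase) adds the O-fucose that ligand binding needs. After ligand binding, ADAM proteases and γ-secretase cut the receptor, and its intracellular part enters the nucleus and joins RBPJ, which otherwise recruits co-repressors to DNA. *Hes1*, which encodes a transcriptional repressor, and *Dtx1*, which encodes the ubiquitin ligase Deltex, are known targets of this complex, and *Dtx1* is also known as a gene of anergic T cells. In lymphocytes, Notch1 is known for T cell development and Notch2 for marginal zone B cells.

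Each of 2 libraries held omental cells captured in droplets, in which transcripts were tagged with unique molecular identifiers (UMIs). The WT library came from wild-type mice, and the DTR library from *Postn*-DTR heterozygotes, which carry the diphtheria toxin receptor in the first coding exon of *Postn* and lose *Postn*-expressing stromal cells when given diphtheria toxin (DT). Both groups, on a C57BL/6 background, received DT by intraperitoneal injection and were taken at 5 days, the labels and methods give neither age nor sex, and no sort is stated, although the cells are called leukocytes. Mice of a group were pooled, so there were no replicates, and no test between the groups was possible. *Postn* itself gave 84 UMIs in 34 WT cells and 20 UMIs in 8 DTR cells, counts that come from few stromal cells and do not check the genotype.

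After the study's limits on cells, 8654 WT cells with 80152228 UMIs (median 5635 per cell) and 5727 DTR cells with 81010680 UMIs (median 8472) remained, and 65 barcodes occurred in both libraries. Levels are means over cells of UMIs per 10000 UMIs of the cell, and ratios are DTR over WT on the log2 scale with no pseudocount. Intervals are exact 95% intervals from summed UMIs, and they cover counting error only, not the difference between mice. Cells were grouped by clusters made without the pathway genes among the features, and named "X-like" from marker genes. CD4 T-like cells carried 5 of 6 markers of their list, B2 B-like cells 6 of 6 and NKT-like cells 8 of 8, whereas the B1 B-like name rests on 3 of 11. The compared lymphocytes included 1273 WT and 155 DTR CD4 T-like cells (naive and other), 407 and 101 Treg-like, 370 and 47 CD8 T-like, 482 and 73 gamma-delta T-like, 525 and 103 NKT-like, 1463 and 419 B2 B-like, and 1123 and 503 B1 B-like cells. Naive cells made up 445 of the WT but 24 of the DTR CD4 T-like cells, and the values of the members in CD4 T-like cells are therefore also given without them. The clusters within the neutrophil-like and plasma-like classes had different shares in the libraries, with 57 of 420 WT but 474 of 1069 DTR neutrophil-like cells in 1 cluster, which touches the values given for these classes.

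On mm10, the assembly of the files, *Dtx1* lies on chromosome 5 (120680202 to 120711927, minus strand), *Pofut1* on chromosome 2 (153241533 to 153270247, plus strand), and *Hes1* on chromosome 16 (30064384 to 30067796, plus strand). No annotated gene overlaps these 3. *Notch1* lies on chromosome 2 (26457903 to 26516663, minus strand), *Notch2* on chromosome 3 (98013527 to 98150361, plus strand) and *Rbpj* on chromosome 5 (53466152 to 53657362, plus strand). For *Notch1* and *Rbpj*, 2 annotated genes each lie on the opposite strand, and *Notch1* also overlaps *Mir6996* on its own strand. Of the genes that overlap each of these members, 1 is listed in the files. *Notch2* overlaps 2 genes on its own strand, of which 0 are listed. The strand setting of the counting is not given in the sources used here, so reads of overlapping genes may have been counted with the members.

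The sequence before a start of *Rbpj* is shown with those of *Notch2* and *Pofut1*, because their levels were lower in DTR in most classes. These were 16 of 16 classes for *Rbpj* and 14 of 16 for *Notch2*. For *Pofut1* they were 10 of the 15 classes with at least 20 UMIs, including the cells that picked it. Of the 250 bases before the start, the part outside annotated exons is shown, since 132 bases of *Rbpj*, 11 of *Notch2* and 145 of *Pofut1* lie in exons. The *Rbpj* stretch lies inside the annotated gene, before an internal start, and the 250 bases before another RefSeq start of *Rbpj* lie wholly in exons and are not shown. The sequences come from RefSeq promoters of GRCm38.p6, on the gene's strand, as chr5:53590096-53590213 (*Rbpj*), chr2:153241427-153241531 (*Pofut1*) and chr3:98013288-98013526 (*Notch2*). Capitals mark TGGGAA, the core recognised by RBPJ, searched on both strands.
Rbpj: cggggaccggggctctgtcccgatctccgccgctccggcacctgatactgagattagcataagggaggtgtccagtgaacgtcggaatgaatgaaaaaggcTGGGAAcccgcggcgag
Pofut1: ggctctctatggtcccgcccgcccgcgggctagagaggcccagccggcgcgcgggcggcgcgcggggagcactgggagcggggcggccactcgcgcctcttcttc
Notch2: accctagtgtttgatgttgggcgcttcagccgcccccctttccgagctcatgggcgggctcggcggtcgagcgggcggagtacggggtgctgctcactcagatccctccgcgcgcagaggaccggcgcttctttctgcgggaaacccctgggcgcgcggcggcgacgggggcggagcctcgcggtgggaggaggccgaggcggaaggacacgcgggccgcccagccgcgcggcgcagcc
The *Rbpj* stretch holds 1 match, and 11.1% of all 32851 promoters hold one in the same slice. No match was found in the stretches of *Pofut1* and *Notch2*, against 9.1% and 20.8% of promoters in the same slices. Over all 250 bases before the start, 21.6% of promoters hold the letters, and *Dtx1*, *Pofut1*, *Notch1* and *Notch2* do not. The 250 bases before the RefSeq start of *Dtx1* lie within an annotated exon and are not shown. A match is a description of letters, and its absence from this window says nothing about binding.

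In WT mice the 6 genes were spread over the lymphocytes in different ways. *Dtx1* was a gene of T-like and B-like cells, *Notch1* of T-like and NK-like cells, *Notch2* of B-like, gamma-delta T-like and innate lymphoid cells, and *Hes1* of ILC2-like cells. *Rbpj* and *Pofut1* gave UMIs in every class of at least 30 cells. In DTR mice *Dtx1* was lower in all T-like classes and higher in B2 and B1 B-like cells, *Notch2* was lower in 14 of 16 classes, and *Rbpj* was lower in 16 of 16. These 16 classes hold at least 30 cells in each library, with CD4 T-like cells represented by the non-naive cells. Of the UMIs of *Dtx1*, 27.7% in the WT library lay in CD4 T-like cells, against 1.06% in the DTR library, in which 40.6% lay in plasma-like cells; these shares move with cell numbers, which differ between the libraries.

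**Figure D1:**
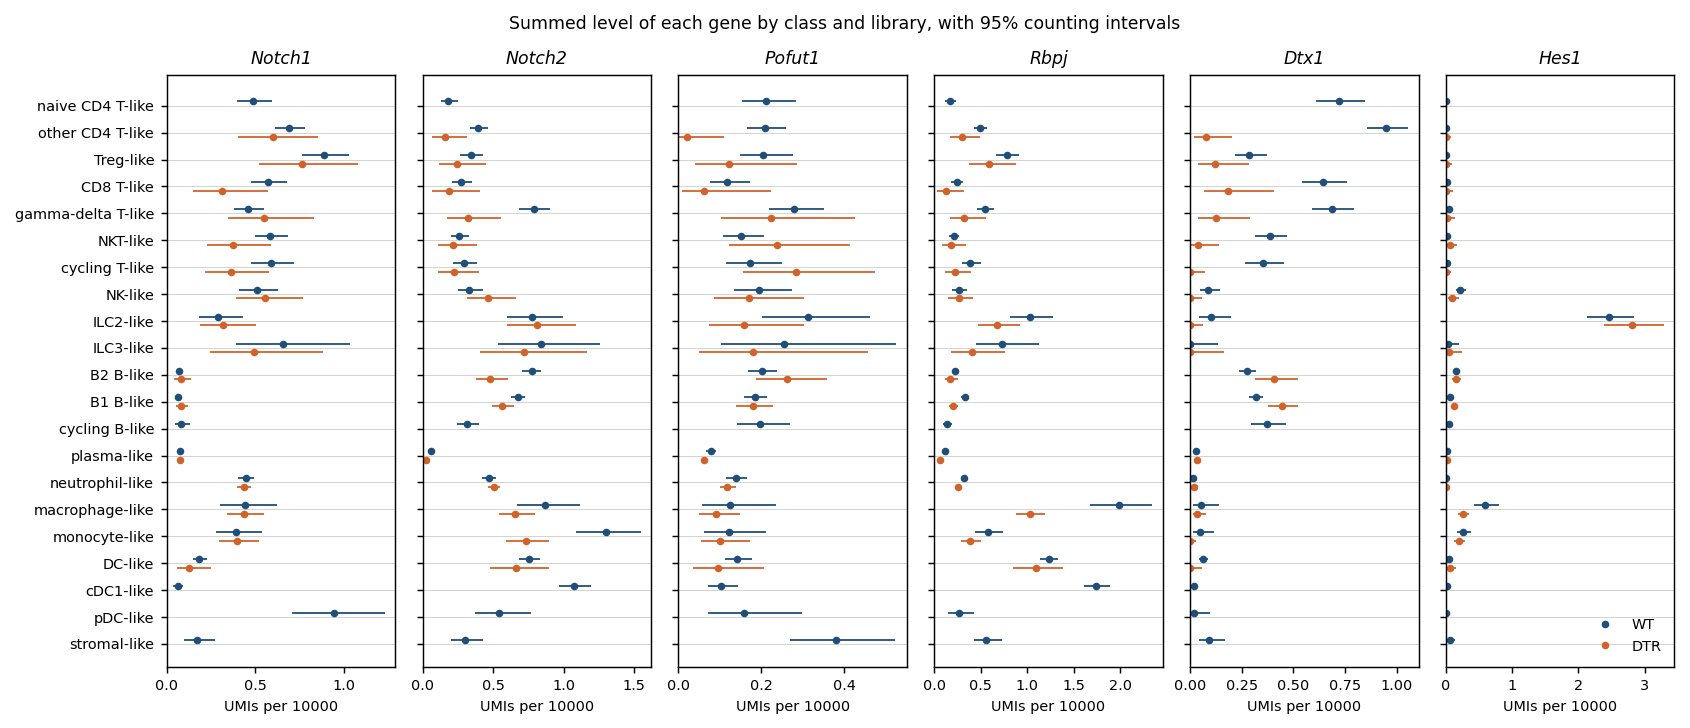
Summed UMIs of each of the 6 genes per 10000 summed UMIs of the class (horizontal axes) by cell class in the WT and DTR libraries, where points are values and lines exact 95% intervals for counting error; classes under 30 cells in a library have no point for it. For *Dtx1*, non-naive CD4 T-like cells stand at 0.951 in WT and 0.0798 in DTR, whereas B1 B-like cells stand at 0.319 and 0.446.

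*Notch1*, the receptor needed for T cell commitment, differed little between the libraries in most lymphocytes. In CD4 T-like cells its level was 0.643 in WT (364 UMIs) and 0.640 in DTR (36 UMIs), a log2 ratio of -0.01 with an interval of -0.59 to 0.45. In the non-naive cells it was 0.715 and 0.640 (interval -0.80 to 0.34). These intervals leave room for changes of less than 2-fold in either direction. In Treg-like cells, which were the lymphocytes with the highest level in both libraries, it was 0.969 and 0.804. Levels in gamma-delta T-like cells (0.501 and 0.616) and NK-like cells (0.490 and 0.572) were nominally higher in DTR. In NKT-like cells the level was 0.598 in WT and 0.325 in DTR, with an interval of -1.41 to 0.05. CD8 T-like cells were the class where *Notch1* was more than 2-fold lower in DTR, at 0.610 against 0.253 (126 and 10 UMIs). There too the interval from summed UMIs, -1.98 to 0.04, reached 0. This difference depended on the clusters. At a finer cluster resolution, CD8 T-like cells led by *Gzmk* (360 WT and 50 DTR) had 0.666 and 0.708, with 132 and 17 UMIs. Those led by *Cd8b1* and *Cd8a* (154 WT and 16 DTR) had 0.668 and 0.134, with 2 UMIs in DTR. *Notch1* was low in B cells, at 0.0735 and 0.0905 in B2 B-like and 0.0686 and 0.0769 in B1 B-like cells. In none of the 16 classes did its counting interval leave out 0. Among myeloid cells, neutrophil-like cells had levels of 0.767 and 0.766, in a class whose clusters had unequal shares in the libraries. Within these clusters it was lower in DTR, at 1.30 and 1.02 in cells led by *Ifitm1* (57 WT and 474 DTR). Cells led by *Ltf* had 0.976 and 0.785, and cells led by *Elane* 0.383 and 0.332. The 61 pDC-like cells of the WT library reached 0.991, a level whose interval overlaps that of Treg-like cells.

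*Notch2*, the receptor on which marginal zone B cells depend, was lower in DTR in B2 and B1 B-like cells. In B2 B-like cells its level was 0.752 in WT (538 UMIs) and 0.475 in DTR (73 UMIs), and a *Notch2* UMI was found in 27.9% and 14.6% of cells. The log2 ratio was -0.66, and the summed UMIs gave -0.68 with an interval of -1.06 to -0.33. Because DTR cells of this class were shallower (median 3162 UMIs against 4375), each cell was also thinned to 1000 UMIs, which left shares of 6.95% and 4.34%, lower in DTR as before. The makeup of the class differed: at a finer cluster resolution, cells led by *Vpreb3* and *Ighd* numbered 568 in WT and 355 in DTR, and cells led by *Fcer2a* and *Cr2* numbered 860 and 59. *Notch2* was 0.657 and 0.480 in the former and 0.823 and 0.447 in the latter, with 61 and 11 UMIs in DTR. In B1 B-like cells the levels were 0.688 and 0.573 (689 and 201 UMIs), and the interval of -0.49 to -0.03 lay just below 0. At the finer resolution 811 WT and 410 DTR cells were named B1 B-like, with 0.655 and 0.571. A further cluster of 346 WT and 97 DTR cells, led by *Gm15228* and *Ms4a1*, was named B2 B-like, with 0.752 and 0.575. Neither class passed 2-fold, which 1.69% of 7081 genes did downward in B2 B-like cells and 1.59% of 8071 in B1 B-like cells.

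In gamma-delta T-like cells, the T-like class with the highest *Notch2* level, it was 0.795 in WT (209 UMIs) and 0.365 in DTR (13 UMIs), a log2 ratio of -1.12 with an interval of -2.22 to -0.48 from summed UMIs. In CD4 T-like cells the levels were 0.324 and 0.160 (188 and 10 UMIs; interval -2.03 to -0.03), and in the non-naive cells 0.40 and 0.158 (interval -2.54 to -0.29). NK-like cells went the other way, at 0.322 and 0.460. Among myeloid cells, *Notch2* was highest in WT in monocyte-like cells, where it was 1.25 in WT and 0.743 in DTR (interval -1.23 to -0.43). It was 1.03 and 0.761 in macrophage-like cells and 0.730 and 0.694 in DC-like cells, the class led by *Cd209a* and *Fscn1*. At the finer resolution, DC-like cells led by *Fscn1* (281 WT and 40 DTR) had 0.785 and 0.695. Those led by *Tnip3* and *Cd209a* (153 WT and 31 DTR) had 0.596 and 0.736, with 17 UMIs in DTR. The second class with a higher level in DTR was the neutrophil-like class, at 0.625 and 0.966, where the ratio of means is 0.63 and that of summed UMIs 0.11, with an interval of -0.08 to 0.30. In all, counting intervals lay below 0 for *Notch2* in 6 classes and above 0 in 0.

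*Pofut1*, which acts on the receptors, has few UMIs behind each value. In CD4 T-like cells, where it was picked, 123 UMIs were found in WT and 3 in DTR, for levels of 0.228 and 0.0835. The share of cells with a UMI was 8.88% and 1.94%. The difference lay in the non-naive cells, with 80 UMIs against 1 (0.240 and 0.0326). In naive CD4 T-like cells, with 43 UMIs in 445 WT cells and 2 UMIs in 24 DTR cells, the direction depended on the measure. The mean level was higher in DTR (0.205 and 0.362), whereas the summed level was nominally lower (0.211 and 0.201). The ratio of all CD4 T-like cells (-1.45) thus rests on 3 UMIs in different cells. Other T-like classes showed smaller differences, with intervals that included 0: 0.199 and 0.155 in Treg-like, 0.0990 and 0.0659 in CD8 T-like, 0.286 and 0.261 in gamma-delta T-like cells. In NKT-like cells the DTR level was the higher (0.133 and 0.228; interval -0.42 to 1.61). B2 B-like cells had 0.207 and 0.311 (interval -0.16 to 0.91) and B1 B-like cells 0.190 and 0.179. Outside CD4 T-like cells, ILC2-like cells were the class where *Pofut1* was more than 2-fold lower, at 0.315 and 0.135, with an interval that included 0 (-2.26 to 0.17). In that class 2.17% of 1798 genes with at least 100 UMIs were 2-fold lower and 4.34% were 2-fold higher. *Pofut1* had fewer UMIs there (25 and 9), and with at least 50 UMIs the shares were 3.18% and 3.54%.

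*Rbpj* encodes the DNA-binding factor through which all Notch receptors signal. Its level was lower in DTR in each of the 16 classes, with log2 ratios from -1.14 to -0.08, where the share of all measured genes below 0 ran from 47.3% in ILC3-like to 64.9% in neutrophil-like cells. Outside these classes, with under 30 DTR cells, it was higher in DTR in naive CD4 T-like cells (0.178 and 0.310, with 2 UMIs in 24 DTR cells) and in cycling B-like cells (0.119 and 0.164, with 9 UMIs in 19 DTR cells). Counting intervals lay below 0 in 6 classes, B1 B-like, plasma-like, ILC2-like, neutrophil-like, macrophage-like and monocyte-like cells. In B1 B-like cells the level was 0.333 in WT (334 UMIs) and 0.201 in DTR (72 UMIs), with an interval of -1.08 to -0.32. In B2 B-like cells it was 0.213 and 0.143 (154 and 26 UMIs).

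Among T-like cells *Rbpj* was highest in Treg-like cells, at 0.735 in WT and 0.449 in DTR (161 and 24 UMIs). Gamma-delta T-like cells had 0.549 and 0.313, and CD4 T-like cells 0.377 and 0.285 (223 and 17 UMIs; interval -1.23 to 0.29), of which the non-naive cells had 0.484 and 0.280 (interval -1.58 to 0.05). No T-like class gave an interval that left out 0, and only CD8 T-like cells, with 53 and 4 UMIs, passed 2-fold. Macrophage-like cells carried the highest level of the 16 classes in either library, 2.23 in WT and 1.53 in DTR, and the summed UMIs gave a log2 ratio of -0.95 with an interval of -1.28 to -0.62. Here too the makeup differed: at the finer resolution, cells led by *Lyve1* and *Folr2* (101 WT and 188 DTR) had 2.34 and 2.21, and cells led by *Alox15* and *Prg4* (18 WT and 142 DTR) had 1.64 and 0.656. The classes share libraries, so their common direction is not 16 separate observations. Scaling by trimmed means (TMM) in place of total UMIs differed by a log2 factor of 0.146 in CD4 T-like, -0.266 in macrophage-like, -0.125 in plasma-like and -0.105 in neutrophil-like cells, and *Rbpj* kept its direction under it in all 16 classes.

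*Dtx1*, which was picked for its value in CD4 T cells, was found with 512 UMIs in WT and 5 UMIs in DTR CD4 T-like cells. The mean level was 0.845 and 0.0903, a log2 ratio of -3.23, and the interval from summed UMIs was -5.02 to -2.16. No DTR CD4 T-like cell held more than 1 UMI of the gene, while 1 WT cell held 7. The gene stood at place 10 from the lowest of 6563 genes ranked by this ratio, and *Pofut1* at place 62. Of these genes 2.41% were 2-fold or more lower in DTR and 2.71% were 2-fold or more higher; the rule used this contrast, and nothing is read from the members' place in it.

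**Figure D2:**
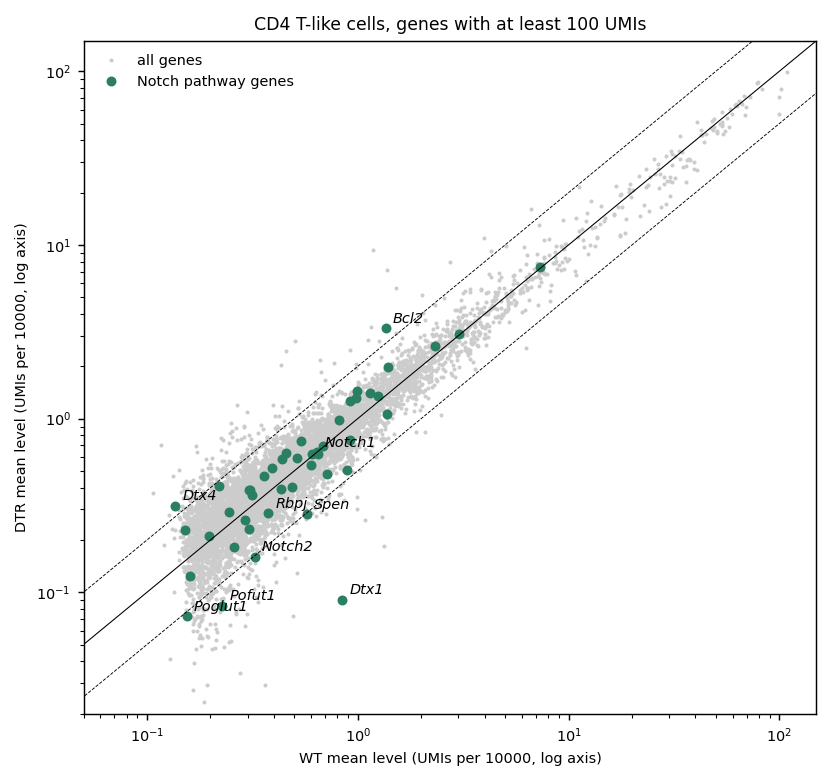
Mean level in DTR against mean level in WT (UMIs per 10000, log axes) of genes with at least 100 UMIs in CD4 T-like cells and a UMI in both libraries; grey points are all genes, green points the Notch pathway genes, the solid line marks equal levels and the dashed lines 2-fold. *Dtx1*, at 0.845 in WT and 0.0903 in DTR, and *Pofut1*, at 0.228 and 0.0835, lie below the lower dashed line, and *Notch1*, at 0.643 and 0.640, lies near the solid line.

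Naive and other CD4 T-like cells were also taken apart. In naive cells 147 UMIs were counted in 445 WT cells and 1 UMI in 24 DTR cells (0.688 and 0.0794), and in the other cells 365 UMIs in 828 WT and 4 UMIs in 131 DTR cells (0.930 and 0.0923). The DTR value of the naive cells rests on 1 UMI in fewer than 30 cells. At a finer cluster resolution, the non-naive cells gave a cluster with 226 UMIs in 504 WT cells and 1 UMI in 80 DTR cells (1.06 and 0.0459) and another with 74 UMIs in 187 and 1 UMI in 32 cells (0.516 and 0.0825). Among non-naive CD4 T-like cells 2.48% of 5535 genes were 2-fold lower and 1.55% were 2-fold higher in DTR.

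A *Dtx1* UMI was found in 25.5% of WT CD4 T-like cells (95% Clopper-Pearson interval 23.2 to 28.0%) and in 3.23% of DTR CD4 T-like cells (1.06 to 7.37%). After thinning to 1000 UMIs, the shares were 98 of 1264 cells (7.75%) and 3 of 153 cells (1.96%), with 9 WT and 2 DTR cells left out as too shallow. After thinning to 2000 UMIs they were 14.9% and 0 of 131 cells, for which the exact interval reaches 2.78%. Neutrophil-like cells, which are not known for *Dtx1*, had a UMI in 2.62% (WT) and 1.5% (DTR) of cells. Their median depth was 13838.5 and 4757 UMIs, against 4147 and 3320 in CD4 T-like cells. The interval of the DTR CD4 T-like share covers both of these values. Per summed UMIs the level was 0.0832 (0.0270 to 0.194) in DTR CD4 T-like and 0.0173 (0.0106 to 0.0267) in DTR neutrophil-like cells. These intervals nearly met, at 0.0270 and 0.0267. After thinning to 1000 UMIs the share of DTR neutrophil-like cells was 0.0954% (0.00242 to 0.530%), against 0.406 to 5.62% for the interval of DTR CD4 T-like cells, and these intervals overlap.

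**Figure D3:**
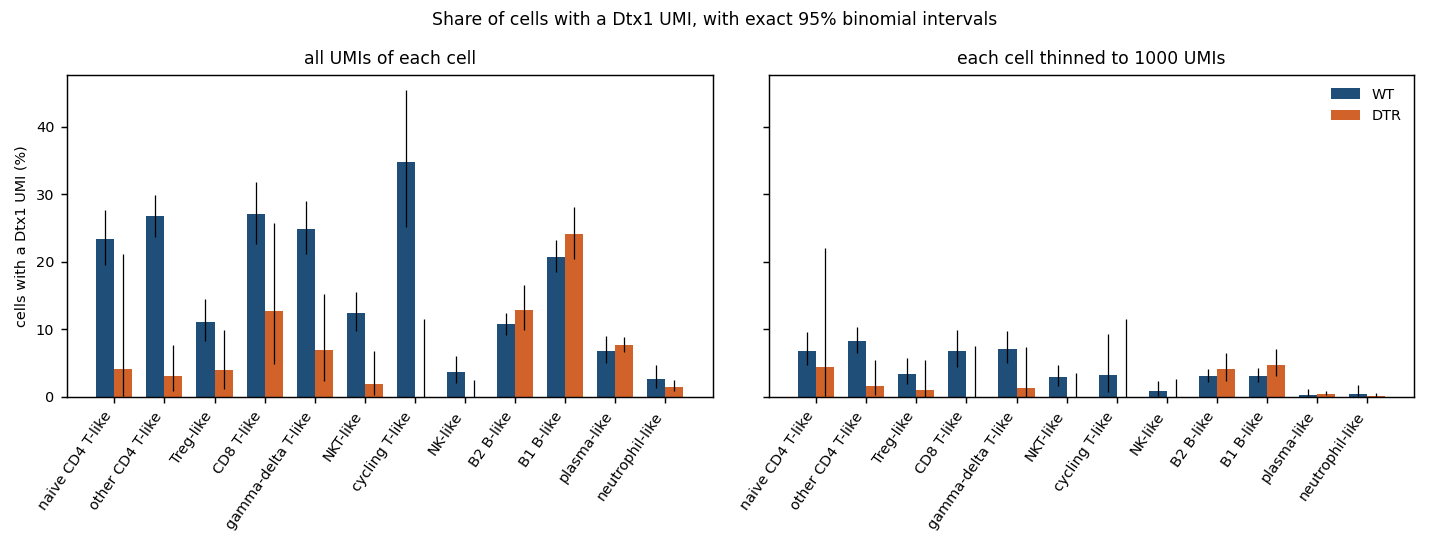
Percent of cells with a *Dtx1* UMI in lymphocyte classes and in neutrophil-like cells of the WT and DTR libraries, as counted (left) and after thinning each cell to 1000 UMIs (right); bars are shares and lines 95% Clopper-Pearson intervals. As counted, non-naive CD4 T-like cells had 26.7% in WT and 3.05% in DTR, and B2 B-like cells 10.7% and 12.9%; the naive CD4 T-like bar of DTR stands for 24 cells.

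*Dtx1* was also lower in DTR in T-like classes that the choice had not used, although in the same libraries. In gamma-delta T-like cells, with 182 UMIs in WT and 5 in DTR, the level was 0.750 and 0.172, and the summed UMIs gave an interval of -4.10 to -1.22. In NKT-like cells 102 and 2 UMIs were found (0.345 and 0.0284; interval -6.35 to -1.40). CD8 T-like cells had 142 and 6 UMIs (0.709 and 0.253; interval -3.26 to -0.63). In these 3 classes the counting interval lay wholly below 0. The share of genes 2-fold lower in DTR was 5.16% in gamma-delta T-like, 1.7% in NKT-like and 3.93% in CD8 T-like cells, and the share 2-fold higher was 1.58%, 1.01% and 1.39%. *Notch2* was the other member past 2-fold in gamma-delta T-like cells, and *Notch1* and *Rbpj* were the others in CD8 T-like cells. The *Notch1* value there depended on the clusters, as given above.

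In Treg-like cells the *Dtx1* level was already lower in WT, at 0.278 (59 UMIs). It was 0.112 (5 UMIs) in DTR, with an interval of -2.90 to 0.08 that includes 0. *Dtx1* was the 1 member past 2-fold there. Of genes with at least 50 UMIs in the class, 4.29% were 2-fold lower and 2.21% were 2-fold higher. With at least 100 UMIs, which *Dtx1* did not reach, 2.55% of 3846 genes were lower and 1.35% higher. Cycling T-like cells had 57 UMIs in 92 WT cells and 0 in 30 DTR cells. With DTR set to 3 counts the log2 ratio is -2.54, and the exact interval reaches up to -2.19. Of genes with at least 50 UMIs in this class, 3.98% were 2-fold lower and 1.74% higher. With at least 100 UMIs the shares were 1.97% and 1.18%. NK-like cells, which belong to the innate lymphocytes, had 15 UMIs in 380 WT cells and 0 in 143 DTR cells, and ILC2-like cells 8 and 0. No ratio was computed for these. ILC3-like cells had 0 UMIs in both libraries, and the exact intervals of the summed level reach 0.135 in WT and 0.165 in DTR.

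In B2 and B1 B-like cells the direction was opposite to that in T-like cells. In B2 B-like cells *Dtx1* was 0.275 in WT (193 UMIs) and 0.388 in DTR (62 UMIs), a log2 ratio of 0.50 with an interval from summed UMIs of 0.12 to 0.98. In B1 B-like cells it was 0.340 (326 UMIs) and 0.482 (159 UMIs), again 0.50, with an interval of 0.20 to 0.76. Both are below 2-fold, which 1.16% of genes passed upward in B2 B-like and 1.65% in B1 B-like cells. The share of cells with a UMI went from 10.7% to 12.9% and from 20.7% to 24.1%, and after thinning from 3.03% to 4.10% and from 3.12% to 4.77%. Within B2 B-like cells, *Dtx1* was 0.335 and 0.403 in the cells led by *Vpreb3* and *Ighd*, and 0.239 and 0.288 in those led by *Fcer2a* and *Cr2*, whose shares differ between the libraries as given above. At that finer resolution it was 0.300 and 0.440 in cells named B1 B-like, and 0.414 and 0.667 in those led by *Gm15228* and *Ms4a1*. Cycling B-like cells went the other way, at 0.373 in WT (77 UMIs in 93 cells) and 0.263 in DTR (6 UMIs in 19 cells). With 1 library of each group, the difference between T-like and B-like cells was not tested.

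Ordered by level, *Dtx1* in WT was led by non-naive CD4 T-like cells (0.930), followed by gamma-delta T-like (0.750), CD8 T-like (0.709) and naive CD4 T-like cells (0.688). The intervals of gamma-delta T-like, CD8 T-like and naive CD4 T-like cells overlap, so their order is not resolved at this depth. In DTR the order was led by B1 B-like cells (0.482) and B2 B-like cells (0.388), followed by CD8 T-like cells (0.253). The intervals of these classes overlap, so this order is not resolved either. Myeloid cells had little *Dtx1*. DC-like cells had 33 UMIs in WT and 0 in DTR, a bound of -0.40. In neutrophil-like cells, with 14 and 20 UMIs, the means gave a ratio of -1.11 and the summed UMIs 0.05, with an interval that includes 0, so that no direction can be given. In plasma-like cells the level was 0.0292 and 0.0333, but the clusters of this class went different ways. It was 0.0236 and 0.0543 (29 and 153 UMIs) in cells led by *Ighv11-2*. Cells led by *Igkv8-16* had 0.00692 and 0.0114, with 1 UMI in WT. Levels were lower in DTR in cells led by *Ighg3* (0.0274 and 0.0136), *Sapcd2* (0.0492 and 0.0129) and *Cacna1h* (0.0652 and 0.00913), each from few UMIs.

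**Figure D4:**
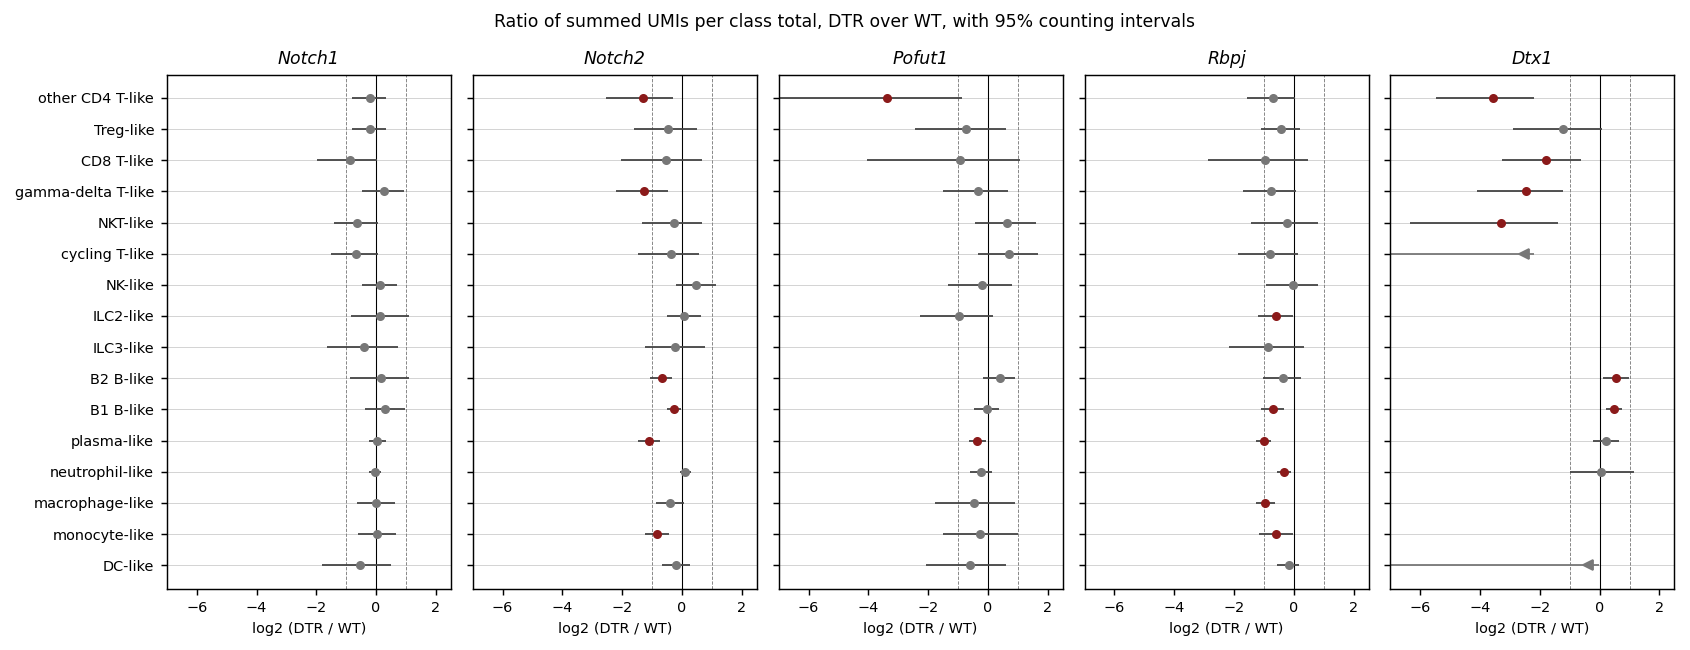
Log2 ratio of summed UMIs per class total (DTR over WT) of 5 of the genes, without *Hes1*, in the classes with at least 20 UMIs; lines are 95% counting intervals, dark red points those whose interval leaves out 0, arrowheads bounds where DTR had 0 UMIs, and dashed lines 2-fold. *Rbpj* lies below 0 in 16 of 16 classes, *Notch1* intervals include 0 in each, and *Dtx1* lies below 0 in T-like and above 0 in B2 and B1 B-like classes.

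*Hes1* encodes a repressor that Notch signalling induces in many tissues. It was not detected in CD4 T-like cells, with 0 UMIs in 1273 WT cells and in 155 DTR cells. A limit of 3 counts would stand for levels of 0.00511 and 0.0499. Treg-like cells had 2 and 0 UMIs, CD8 T-like cells 3 and 0, gamma-delta T-like cells 11 and 1, and NKT-like cells 5 and 3. No T-like class thus held enough *Hes1* for a ratio, although these cells held *Dtx1*, the other target among the members. ILC2-like cells, innate lymphocytes known for type 2 cytokines, held 29.1% of all *Hes1* UMIs in WT and 35.0% in DTR. Their level was 2.81 in WT (197 UMIs) and 3.09 in DTR (159 UMIs), with a UMI in 33.9% and 31.5% of cells and an interval of the ratio from -0.12 to 0.50. Among classes of at least 30 cells, ILC2-like cells were first in the order of *Hes1* levels in both libraries, and their interval did not overlap that of the next class. The 26 mast and basophil-like cells of the WT library had a summed level of 2.61 (41 UMIs; 1.88 to 3.55), close to that of ILC2-like cells, 2.47.

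In B2 B-like cells *Hes1* was 0.161 and 0.146 (106 and 24 UMIs). In B1 B-like cells it was higher in DTR, at 0.0639 and 0.116 (64 and 46 UMIs), with an interval of 0.47 to 1.61. In the cells named B1 B-like at the finer resolution it was 0.0639 and 0.135. In those led by *Gm15228* and *Ms4a1* it was 0.0850 and 0.0246, with 2 UMIs in DTR. NK-like cells, with 37 and 6 UMIs, had 0.225 and 0.112, and the interval of -2.78 to 0.02 includes 0; in this class 1.13% of genes were 2-fold lower and 0.617% were 2-fold higher. Macrophage-like cells had 0.769 in WT and 0.218 in DTR (43 and 44 UMIs), a log2 ratio of means of -1.82. The summed UMIs gave a smaller difference, -1.17, with an interval of -1.81 to -0.53. In this class 6.42% of genes with at least 50 UMIs were 2-fold lower and 5.97% were 2-fold higher. With at least 100 UMIs, which *Hes1* did not reach, the shares were 3.92% and 5.59%. DC-like cells, with 24 and 4 UMIs, had 0.0422 and 0.0913, a log2 ratio of means of 1.12. The summed UMIs gave 0.47 with an interval of -1.52 to 2.01, which includes 0. In this class 12.3% of genes with at least 50 UMIs were 2-fold lower and 3.77% were 2-fold higher. With at least 100 UMIs the shares were 8.95% and 2.68%, and *Hes1* reached neither limit.

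Free RNA of lysed cells can give UMIs in cells that do not express a gene. *Notch1* and *Dtx1* in plasma-like cells (0.0767 and 0.0292 in WT) and *Hes1* in neutrophil-like cells (0.00148 in WT and 0.0287 in DTR) are low values of the kind that such RNA can give, and its part in them was not tested. *Dtx1* went different ways in the plasma-like clusters, as given above. In plasma-like cells *Notch2* was 0.0748 and 0.0295 (113 and 147 UMIs) and *Rbpj* 0.124 and 0.0656 (232 and 324 UMIs), both lower in DTR by counting intervals, but *Notch2* in these cells is near such low levels. The cluster of plasma-like cells with the most *Notch2* had 0.383 in WT and 0.0806 in DTR (41 and 10 UMIs). It held 62 WT and 132 DTR cells of median depths 21700 and 4583.5 UMIs, of which 7.22% were called doublets. *Notch2* was also lower in DTR in cells led by *Ighv11-2* (0.0421 and 0.0227) and *Igkv8-16* (0.0437 and 0.0227). It was not lower in cells led by *Ighg3* (0.0312 and 0.0319) and *Sapcd2* (0.0388 and 0.0480). In plasma-like cells 6.37% of 9933 genes were 2-fold lower and 3.6% were 2-fold higher. Of 50 pathway genes measured in them 3 were lower (*Neurl3*, *Notch2* and *Dtx3*) and 2 were higher (*Dll3* and *Neurl1a*).

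The members were then set beside the pathway, for which 72 genes were listed and 71 were found in the files. In CD4 T-like cells 46 of them had at least 100 UMIs over both libraries, of which 5 were 2-fold or more lower in DTR and 2 were higher, against 2.41% and 2.71% of all 6563 genes; *Dtx1* and *Pofut1* had been picked for this. The median log2 ratio of the 46 was 0.0854, against 0.0682 over all genes. In the non-naive cells 3 of 40 were lower (*Dtx1*, *Notch2* and *Spen*) and 1 was higher (*Bcl2*), with a median of 0.0338 against -0.00567 over all genes. Beside *Dtx1*, *Pofut1* and *Notch2*, the lower ones were *Poglut1*, which adds O-glucose to the receptors (0.155 and 0.0726; 96 and 7 UMIs), and *Spen*, a co-repressor partner of RBPJ (0.572 and 0.281; 324 and 20 UMIs; -1.46 to -0.08). The higher ones were *Bcl2*, which encodes an inhibitor of apoptosis (1.35 and 3.32; 797 and 210 UMIs), and *Dtx4*, another Deltex family member (0.136 and 0.315; 83 and 19 UMIs). The interval of *Poglut1* includes 0 (-1.84 to 0.61).

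By role, 0 of 6 ligands had 100 UMIs in CD4 T-like cells. Of the receptors 2 were measured and 1 was lower, and of the enzymes of sugar transfer 4 were measured and 2 were lower. These 2 were *Pofut1*, which had been picked for this, and *Poglut1*, whose interval includes 0. Among the proteases 8 were measured, 0 passed 2-fold and 1 had a ratio below 0. Of 8 measured members of the nuclear complex with RBPJ 0 passed 2-fold, and of 10 co-repressors 1 was lower. Trafficking and degradation gave 10 measured genes, with *Dtx1* lower and *Dtx4* higher, and the targets gave 5, with *Dtx1* lower and *Bcl2* higher. Of the 46 measured pathway genes 39 lay within 2-fold. Of all 6563 genes 2.41% were 2-fold or more lower and 2.71% were higher. *Dtx1* and *Pofut1* were picked in these cells, so nothing is read from their place in these counts.

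**Figure D5:**
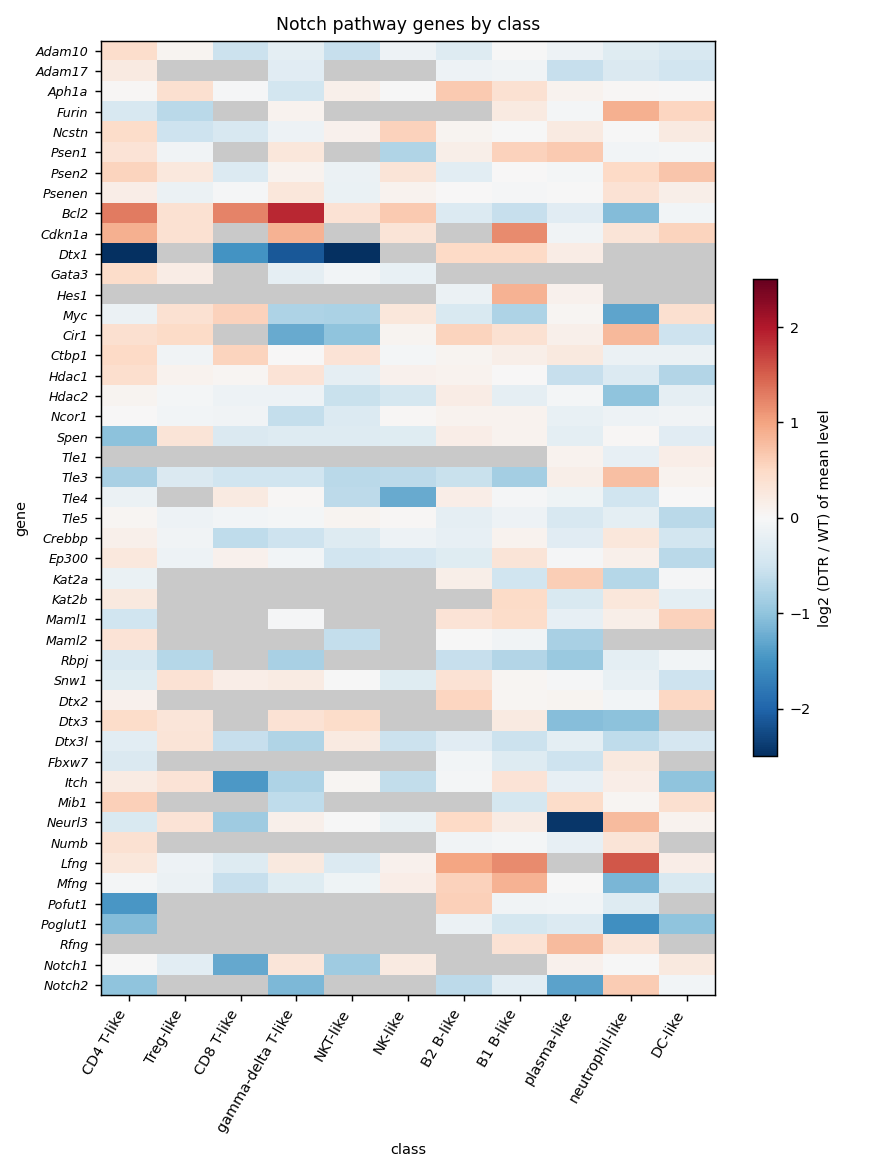
Log2 ratio of mean levels (DTR over WT) of 47 pathway genes in 11 classes, ordered by role; blue is lower and red higher in DTR, colours end at 2.5 in either direction, and grey marks genes with under 100 UMIs in the class. *Dtx1* is blue in CD4, CD8, gamma-delta T-like and NKT-like columns, grey in the Treg-like column and pale red in B-like columns, and *Bcl2* is red in CD4, CD8 and gamma-delta T-like columns.

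Of the pathway list in other T-like classes, 3 of 26 measured genes were lower in CD8 T-like cells (*Dtx1*, *Notch1* and *Itch*, which encodes a ubiquitin ligase, at 0.495 and 0.183) and 1 was higher (*Bcl2*, 1.62 and 3.84). In gamma-delta T-like cells 3 of 37 were lower (*Dtx1*, *Notch2* and the co-repressor gene *Cir1*, 0.403 and 0.168) and *Bcl2* was higher (0.781 and 2.87). NKT-like cells gave 2 of 30 lower, *Dtx1* and *Cir1*, and Treg-like cells 0 of 31. The cycling T-like cells gave 1 of 21 lower, *Gata3*, and 1 higher, *Myc*. Of all genes, 3.93% were 2-fold lower in CD8 T-like, 5.16% in gamma-delta T-like and 1.7% in NKT-like cells. The shares lower were 2.55% in Treg-like and 1.97% in cycling T-like cells. The shares 2-fold higher were 1.39%, 1.58%, 1.01%, 1.35% and 1.18% in the same order.

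In B2 B-like cells 0 of 39 measured pathway genes were 2-fold lower or higher. The highest ratio was that of *Lfng*, a glycosyltransferase that extends the O-fucose on Notch and favours Delta-like ligands, at 0.213 and 0.421. In B1 B-like cells 2 of 45 were higher, and 0 were lower. The higher ones were *Lfng* (0.111 and 0.25, with 105 and 88 UMIs) and *Cdkn1a*, which encodes a cell cycle inhibitor (0.0697 and 0.159, with 69 and 60 UMIs). Of all genes, 1.69% were 2-fold lower and 1.16% higher in B2 B-like cells. The shares were 1.59% and 1.65% in B1 B-like cells.

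Among innate and myeloid classes, ILC2-like cells had 2 of 17 measured pathway genes higher, *Cdkn1a* (3.09 and 9.61) and *Bcl2* (0.785 and 2.25). In that class 2.17% of all genes were 2-fold lower and 4.34% were 2-fold higher. ILC3-like cells had 1 of 7 higher, *Cdkn1a*, where 1.24% of genes were 2-fold lower and 3.17% were 2-fold higher. NK-like cells had 1 of 30 lower, *Tle4*, where 1.13% of genes were 2-fold lower and 0.617% were 2-fold higher. In monocyte-like cells *Itch* (1.30 and 0.607) and *Neurl3* (2.11 and 1.05) were among the lower genes, against 5.46% of genes 2-fold lower and 3.2% higher. Macrophage-like cells had 1 of 21 lower (*Snw1*), against 3.92% of genes 2-fold lower and 5.59% higher. In DC-like cells *Ccnd1*, which encodes a G1 cyclin (2.53 and 0.561), *Itch* (0.663 and 0.330) and *Poglut1* (0.243 and 0.121) were among the lower genes. In that class 4 of 41 measured pathway genes were lower and 0 were higher, against 8.95% and 2.68% of all genes. Neutrophil-like cells had 6 of 49 lower and 1 higher, against 6.64% and 3.74% of genes.

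*Dtx1* is also listed among genes of T cell anergy, and 19 of 24 such genes were measured in CD4 T-like cells. Of these, *Dtx1* and *Nfatc2*, which encodes an NFAT factor (0.607 and 0.287), were 2-fold lower, and the inhibitory receptor genes *Tigit* (0.456 and 2.45) and *Pdcd1* (0.434 and 2.03) were 2-fold higher. The median was -0.0139. In the non-naive cells 3 of 19 were lower (*Dtx1*, *Nfatc2* and *Nrp1*, the last at 0.664 and 0.288) and 2 were higher, with a median of -0.197. In Treg-like cells 0 of 19 were lower and *Pdcd1* (2.78 and 7.0) and *Tigit* (3.21 and 6.84) were higher. In CD8 T-like cells 3 of 13 were lower (*Dtx1*, *Itch* and *Nr4a2*) and 3 were higher (*Tigit*, *Nr4a1* and *Pdcd1*). The shares of all genes past 2-fold in these classes are those given above.

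Genes of naive T cells were counted in the same way. In CD4 T-like cells 16 of 16 were measured, 3 were 2-fold lower (*Dapl1*, *Actn1* and *Nsg2*) and 0 were higher, with a median of -0.343 against 0.0682 over all genes, and the non-naive cells gave the same counts and a median of -0.266. In gamma-delta T-like cells *Ccr7* (0.256 and 0.0666), *Ms4a4b* (1.78 and 0.547) and *Tcf7* (2.61 and 1.21) were 2-fold lower of 10 measured, and in NKT-like cells *Bach2* and *Ccr7* of 14. In CD8 T-like cells *S1pr1* and *Actn1* were lower of 16, and in Treg-like cells *Tcf7* was lower and *Il7r* higher (3.83 and 11.1) of 13. These counts stand beside the shares of all genes past 2-fold given above for each class. The part of naive-like cells within these T-like classes in the *Dtx1* values was not tested.

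Genes known for marginal zone B cells were few past 2-fold. Of 10 measured in B2 B-like cells *Cr2*, the complement receptor gene that marks marginal zone and follicular B cells, was 2-fold lower (2.71 and 1.18; interval -1.35 to -0.92), and of 12 in B1 B-like cells *Cr2* again (0.555 and 0.227). *Cr2* was also among the markers that named the B2 class, and the part of the unequal numbers of cells led by *Fcer2a* and *Cr2* (860 WT and 59 DTR) in its value was not tested. The medians were -0.208 and -0.327. Of 11 genes of Notch2-dependent dendritic cells 3 were measured in DC-like cells, and *Cx3cr1* was 2-fold lower (1.14 and 0.477), in a class of 441 WT and 73 DTR cells. For B-like and DC-like cells too, the shares of all genes past 2-fold are those given above.

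For each member, the genes with the most similar levels were sought over 37 points, each a class in a library, among 11274 genes, by Pearson's r of log2(level + 0.05). Points of a library share its preparation, and the r is a description. For *Dtx1* these were *Rapgef4* (0.816), *Chst10* (0.798) and *Gm45552* (0.76). *Notch1* went with *Snx18* (0.877), *Fyb* (0.825) and *Tmem50a* (0.796), and *Notch2* with *Plekho2* (0.814), *Capza2* (0.761) and *Rasgrp4* (0.754). The nearest genes were *Hnrnph1* (0.748), *Rtel1* (0.74) and *Med23* (0.697) for *Pofut1*, *Sod1* (0.805), *Trps1* (0.799) and *Nav1* (0.797) for *Rbpj*, and *Slc7a8* (0.795), *Deptor* (0.737) and *Zfand5* (0.733) for *Hes1*. No member was among the 3 genes nearest to another.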

How the data were processed

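Cells of the omentum were profiled in 2 droplet libraries, 1 of each group, with a Chromium kit that is the 5′ version per the labels and the 3′ version per the study's methods. The submitters' processing notes name Cell Ranger 6.0.0 and mm10; the methods name another Cell Ranger release. The deposited matrices hold, for a gene in a cell, the natural log of 1 plus its UMIs per 10000 UMIs of the cell, computed by the authors and kept to 3 decimals. Dividing the back-transformed values by the step of each cell gave UMIs that were whole within 0.1 UMI for 99.97% (WT) and 99.91% (DTR) of values. Identifiers of 19950 of 19960 genes were found in the GENCODE annotation of mm10.

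Cells with 200 to 7500 genes and at most 25% mitochondrial UMIs were kept (of 8686 and 5736 barcodes), as in the study. Libraries were merged without batch correction, and SCTransform (sctransform 0.4.2, Seurat 5.3.0, R 4.3.3) with 30 principal components and resolution 0.8 gave 32 clusters. Of 3000 features, 247 receptor segments and 22 pathway genes were left out. Scrublet (scanpy 1.11.5) called 1.93% and 2.29% of cells doublets, which were kept. Clusters were named from marker lists, with scoring thresholds set after the clusters had been seen; 3 clusters (2.46% of WT and 0.943% of DTR cells) stayed unnamed. A different set of clusters could move cells between classes.

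Ratios of mean levels were computed for members with at least 20 UMIs over both libraries in a class, and for all genes with at least 100, of which the share at 2-fold or more is the background given. Intervals are exact Poisson, conditional binomial and Clopper-Pearson intervals (scipy 1.17.1). Thinning used 1000 and 2000 UMIs a cell. The scripts were checked on simulated data. Named were the 6 members, the listed genes past 2-fold (at most 6 for each list and class), the 3 most similar genes of each member, and *Lfng* in B2 B-like cells, *Dll1*, *Jag1*, *Jag2* and *Nrarp*, which were chosen after their values were seen. The members and lists were chosen with earlier results of these data known. Of the pathway list, 1 gene is counted but not reported here.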

Additional observations from a re-analysis of the deposited data

Results flagged for a closer look

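The log2 ratio of *Dtx1* (DTR over WT, mean levels) went in opposite directions in T-like cells and in B2 and B1 B-like cells. The ratio of NKT-like cells was -3.60, that of CD4 T-like cells -3.23, that of gamma-delta T-like cells -2.13 and that of CD8 T-like cells -1.49. B2 B-like cells gave 0.50, and B1 B-like cells gave 0.50. With 1 library of each group, the difference between these classes was not tested, and the value in CD4 T-like cells had chosen the gene.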

How the results depend on the processing

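No paired analysis was possible because each group has 1 library, and for the same reason no replicate could be left out. With other choices (summed UMIs, TMM scaling, reduced totals, thinning to 1000 UMIs, called doublets left out, pathway genes kept among the features, cluster resolutions 1.6 and 0.4, at least 500 genes, the highest cell left out, and gates on marker UMIs), the log2 ratio of *Dtx1* ranged from -3.77 to -2.18 in CD4 T-like and from 0.37 to 0.61 in B2 B-like cells, and that of *Notch2* in B2 B-like cells from -0.73 to -0.43. In naive CD4 T-like cells alone, with 24 DTR cells, *Pofut1* turned to 0.82 and *Rbpj* to 0.80 by mean levels, with 2 DTR UMIs behind each. *Dtx1* in neutrophil-like cells turned to 0.055 with summed UMIs, to 0.16 with TMM scaling and to 0.12 with reduced totals, and *Hes1* in NK-like cells to 0.74 after thinning; the cause was not tested. With at least 200 UMIs, where fewer genes are measured, 2 pathway genes were lower and 1 was higher in CD4 T-like cells, in place of 5 and 2. With at least 50 UMIs, 1 was higher in B2 B-like cells, in place of 0. The main values were those of *Dtx1*, *Pofut1*, *Notch1* and *Rbpj* in CD4 T-like cells and of *Dtx1* and *Notch2* in B2 B-like cells. Over all choices, 4 of these values moved by more than the counting interval, and 39 of the other values did so. At resolution 0.4 CD4 T-like cells merged with Treg-like cells and no DC-like or cycling class was found, so no value was had. Few cells stand behind the DTR values of CD8 T-like (47), gamma-delta T-like (73) and NKT-like (103) cells.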

Other observations

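Ligand genes gave few UMIs in CD4 T-like cells, with 16 and 2 of *Jag1*, 9 and 0 of *Jag2* and 0 of the other 4. *Dll1* was a gene of ILC3-like cells, with 134 UMIs in 55 WT cells (5.11 UMIs per 10000) and 106 UMIs in 50 DTR cells (4.52). *Jag1* gave 50 UMIs in gamma-delta T-like cells of the WT library (0.204) and 22 UMIs in ILC2-like cells of the DTR library (0.412), and *Jag2* gave 29 UMIs in cDC1-like cells of the WT library (0.110). *Dll3* gave 12 UMIs in WT and 372 UMIs in DTR plasma-like cells (0.00533 and 0.0665). *Nrarp*, a Notch target that limits the pathway, was found in NK-like cells with 106 and 36 UMIs (0.668 and 0.662).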
